A study of Homo sapiens with 6 samples.

Results

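NEAT1 and MALAT1 are long non-coding RNAs that stay in the nucleus, and NONO, SFPQ, PSPC1, TARDBP and RBM14 encode proteins that gather with NEAT1 in paraspeckles. These 7 genes were taken by their symbols from a table of 28395 genes, and all 7 were found and tested. They were measured by RNA-seq in HCC827, an established human lung adenocarcinoma cell line whose EGFR carries an activating mutation. Cells received either the vehicle DMSO (3 libraries) or 1 μM erlotinib, an inhibitor of the EGFR kinase (3 libraries), for 24 h, and no other agent or allele separated the groups. The labels do not say that the libraries came from separate cultures, so p-values measure the spread between these samples, which may be technical. Each DMSO library held between 20858083 and 24641819 reads on genes, and each erlotinib library between 20760204 and 21944007. Values are given as signal, the reads of a gene divided by 1 size factor per library. Of 5 epithelial markers, all abundant, KRT18, KRT8 and KRT19 were lower with erlotinib (-1.25, -0.83 and -0.39 on the log2 scale), while CDH1 (0.14) and EPCAM (-0.05) did not pass the test, limma with an adjusted p under 0.05. Of the leukocyte markers, PTPRC was at or below 5.62 in every library and CD68, a lysosomal protein, was at 2898 ± 206 with DMSO and 3394 ± 167 with erlotinib (SD, n = 3 each).

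Paraspeckles are nuclear bodies built on NEAT1. A single promoter gives a short NEAT1 transcript with a poly(A) tail and a long one that extends past it, and the long form is the scaffold on which the bodies assemble. NONO, SFPQ and PSPC1 form the DBHS family, RNA-binding proteins that pair with each other and coat the scaffold, while RBM14 holds paraspeckles together through a prion-like domain and TARDBP encodes TDP-43, an RNA-binding protein of splicing and 3′ end choice that binds NEAT1. MALAT1 lies next to NEAT1 and gathers in nuclear speckles, the neighbouring bodies rich in splicing factors. The long NEAT1 form and MALAT1 end without a poly(A) tail. RNase P cuts their 3′ ends in front of a tRNA-like RNA, and the end of the MALAT1 RNA is protected by a triple helix with its own A-rich tract.

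With erlotinib both non-coding RNAs rose, and 4 of the 5 protein genes fell. NEAT1 rose 2.83-fold and MALAT1 rose 2.28-fold, while RBM14 fell to 27.6% of its DMSO mean, SFPQ to 47.8%, TARDBP to 51.7% and PSPC1 to 65.9%. NONO, the most abundant of them, did not pass the test. Of the 7 genes, 2 were higher and 4 were lower at an adjusted p under 0.05 (limma on log2(signal + 1), Benjamini-Hochberg over 14215 genes), which is 6 of 7 where 70.7% of all genes tested passed. The response of these cells was broad, and 35.3% of all genes tested were higher and 35.4% lower by the same call. The median log2 fold change was -0.60 over the 7 genes and 0.02 over all genes tested. In bulk RNA, fewer cells of a type and less RNA per cell cannot be told apart.

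**Figure D1:**
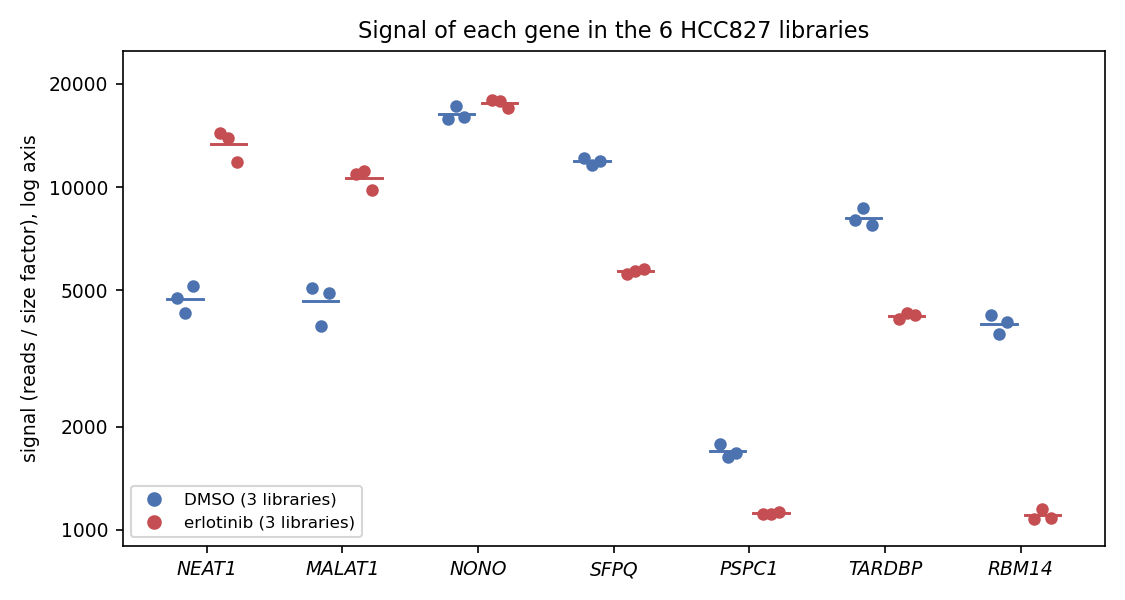
Signal (reads divided by the size factor, log axis) of the 7 genes in each library, with a point for each library and a line at the mean of each group of 3. NEAT1 and MALAT1 lie higher in all erlotinib libraries, SFPQ, PSPC1, TARDBP and RBM14 lie lower, and the NONO points of the groups overlap.

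NEAT1 (Entrez 283131) spans 22743 bases at chr11:65422798-65445540 of GRCh38.p14 in RefSeq and has no intron in its long form. Its signal was 4736, 4300 and 5162 in the DMSO libraries and 14393, 13904 and 11830 in the erlotinib libraries. Every erlotinib library lay above every DMSO library, with Erlo6 the lowest of its group. Group means were 4733 ± 431 and 13376 ± 1361 (SD, n = 3), giving a log2 fold change of 1.50 (SE 0.08, 95% interval 1.33 to 1.66, limma adjusted p 6.3e-13). In the order of all genes tested this was the 1482nd largest rise. The groups were also free of overlap in 73.6% of all genes tested, higher with erlotinib in 36.7% and lower in 36.9%.

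MALAT1 (Entrez 378938) begins 52.2 kb past the end of NEAT1, at chr11:65497738-65506516 on the same strand. Signal was 5087, 3929 and 4928 with DMSO and 10913, 11125 and 9786 with erlotinib. The groups did not overlap, DMSO2 was the lowest library of all, and Erlo6 was again the lowest of its group. Group means were 4648 ± 627 and 10608 ± 720 (SD, n = 3), which is 1.20 on the log2 scale (SE 0.08, 95% interval 1.02 to 1.37, limma adjusted p 6.0e-11). NEAT1 and MALAT1 together took 0.0360% to 0.0445% of the signal in the DMSO libraries and 0.107% to 0.125% in the erlotinib libraries. Part of this signal can belong to other RNAs. Strand-specific counting is not given in the sources used here, and TALAM1, the antisense RNA of MALAT1, overlaps it, as does mascRNA, the tRNA-like RNA cut from its end. Neither of these was analysed here.

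The libraries were selected with oligo(dT) beads, which hold RNA by runs of A, and so the 3′ end of MALAT1 is shown. It was read from GRCh38 at chr11:65506057-65506174, plus strand, as the 60 bases before mascRNA followed by the 58 bases of mascRNA. Capitals mark runs of at least 4 A in the bases before mascRNA.
MALAT1 3′ end: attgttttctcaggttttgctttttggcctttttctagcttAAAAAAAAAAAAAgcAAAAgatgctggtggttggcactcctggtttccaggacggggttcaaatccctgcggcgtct
The longest run held 13 A, which is also the longest in the 8779 bases of MALAT1. The short NEAT1 transcript had no run of 10 or more A in its 3684 bases (longest 5), and the long transcript had 5 such runs (longest 22). How much of each RNA the beads kept was not measured, so levels of NEAT1 and MALAT1 here are levels in oligo(dT)-selected RNA.

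The files count NEAT1 as 1 gene, and whether the counted feature covered the long form is not given in the sources used here. In GENCODE release 44, 8 of its 9 transcripts end by position 65426513 and only the long one runs on to 65445540. MIR612, a miRNA gene at chr11:65444458-65444557, lies 21.7 kb from the NEAT1 start and therefore within the long transcript alone. Its reads numbered 2, 12 and 1 with DMSO and 31, 28 and 57 with erlotinib. All erlotinib libraries lay above all DMSO libraries, and DMSO2 held most of the DMSO reads. The signal went from 4.83 ± 5.50 to 36.6 ± 14.6 (SD, n = 3 each), with a log2 fold change of 3.05 on the log2(signal + 1) scale. The size of this change moved with the pseudocount, from 1.67 at a pseudocount of 10 to 3.47 at 0.1, and reached 3.79 without DMSO2. MIR612 passed the filter of a mean signal of 10 only through its erlotinib libraries, and with no filter on signal its limma adjusted p was 0.00049. Whether these reads came from the long NEAT1 transcript was not tested. Of 84 miRNA genes inside an exon of a gene whose mean signal reached 1000, 55 were listed at 0 in all libraries and 9 reached a mean of 10.

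A promoter window of 250 bases before to 50 after the start was found in RefSeq (GRCh38.p14) for MALAT1, NONO, PSPC1, TARDBP and RBM14, and MALAT1 had 2 windows. In these, 9 short motifs were searched on both strands. The bases before the start are shown for the second MALAT1 window, for RBM14, the gene that fell furthest, and for NONO, which did not pass the test, all on the plus strand. Capitals mark the motif matches. The positions are chr11:65498795-65499044 for MALAT1, chr11:66616380-66616629 for RBM14 and chrX:71283385-71283634 for NONO. The RefSeq span of MALAT1 begins at position 65497738, so the MALAT1 bases shown lie inside that span and not before it.
MALAT1: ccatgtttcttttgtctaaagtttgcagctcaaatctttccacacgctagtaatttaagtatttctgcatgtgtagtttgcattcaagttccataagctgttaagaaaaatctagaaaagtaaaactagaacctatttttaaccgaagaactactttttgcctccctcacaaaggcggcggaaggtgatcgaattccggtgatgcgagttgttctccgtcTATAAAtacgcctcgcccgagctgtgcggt
RBM14: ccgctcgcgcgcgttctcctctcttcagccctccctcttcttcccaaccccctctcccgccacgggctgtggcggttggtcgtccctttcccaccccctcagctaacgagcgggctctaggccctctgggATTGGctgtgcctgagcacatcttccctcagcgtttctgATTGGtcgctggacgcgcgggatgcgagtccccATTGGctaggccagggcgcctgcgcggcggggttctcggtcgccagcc
NONO: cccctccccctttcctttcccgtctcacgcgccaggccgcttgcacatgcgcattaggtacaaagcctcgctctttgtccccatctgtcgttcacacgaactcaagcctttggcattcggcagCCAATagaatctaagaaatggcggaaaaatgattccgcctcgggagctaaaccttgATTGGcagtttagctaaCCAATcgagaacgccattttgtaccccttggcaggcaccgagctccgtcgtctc
The second MALAT1 window holds a TATA box, TATAAA, beginning 30 bases before the start of that window's transcript. TATAAA occurs in 11.6% of the 34794 promoter windows. RBM14 and NONO each hold 3 CCAAT boxes, written CCAAT or, on the other strand, ATTGG. At least 1 CCAAT is in 34.6% of all windows and at least 3 are in 3.25%. The first MALAT1 window holds 5 matches to the GC box GGGCGG, which is in 44.9% of windows. The TARDBP window holds 1 GC box and 1 match to ACGTG, the core of the hypoxia response element (21.4% of windows). The PSPC1 window held none of the motifs searched, which also included the forkhead (GTAAACA), AP-1 (TGANTCA), heat shock (GAANNTTC), E-box (CACGTG, which contains ACGTG) and ETS (CCGGAAG) motifs.

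SFPQ, PSPC1 and NONO, the DBHS family, responded unequally. SFPQ (Entrez 6421, chr1:35176380-35193145), which is needed to keep NEAT1 and the bodies intact, had a signal of 12144, 11580 and 11956 with DMSO and 5580, 5684 and 5780 with erlotinib. The groups stood far apart and each was narrow. Group means were 11893 ± 287 and 5682 ± 100.02 (SD, n = 3), giving a log2 fold change of -1.07 (SE 0.06, 95% interval -1.19 to -0.94, limma adjusted p 2.1e-12).

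PSPC1 (Entrez 55269, chr13:19671205-19782945) encodes paraspeckle component 1, a marker protein of the bodies. Signal was 1776, 1637 and 1679 with DMSO and 1115, 1112 and 1128 with erlotinib. The erlotinib libraries were nearly equal, all below the DMSO libraries. The log2 fold change was -0.60 (SE 0.08, 95% interval -0.76 to -0.44, limma adjusted p 5.3e-07). PSPC1 overlaps the end of MPHOSPH8 in the annotation, whose mean signal was 1256 and whose log2 fold change was -0.07.

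NONO (Entrez 4841, chrX:71283635-71301168) is the usual partner of both other family members and was the gene with the 98th highest mean signal of 14215. It had a signal of 15776, 17251 and 16003 with DMSO and 18007, 17804 and 17011 with erlotinib. DMSO2 was above Erlo6, so that the groups overlapped. The means were 16344 ± 794 and 17607 ± 526 (SD, n = 3 each), and the log2 fold change was 0.11 (SE 0.06, 95% interval -0.02 to 0.24, limma adjusted p 0.13). The interval leaves room for a rise of up to 0.24 and for a fall of no more than 0.02 on the log2 scale. The call depended on DMSO2 and on scaling. Without DMSO2 the log2 fold change was 0.15 (limma adjusted p 0.0087), and scaled to the total count it was 0.29 (limma adjusted p 0.00036).

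With SFPQ and PSPC1 lower, NONO made up more of the DBHS messages in the erlotinib libraries. Per kb of the canonical GENCODE transcript, the signal was 6142 ± 298 for NONO, 3180 ± 76.8 for SFPQ and 697 ± 29.3 for PSPC1 with DMSO, and 6617 ± 198, 1519 ± 26.7 and 459 ± 3.55 in that order with erlotinib (SD, n = 3 each). NONO made up 61.3% ± 1.75 of the sum of the family per kb with DMSO and 77.0% ± 0.794 with erlotinib. For SFPQ the share went from 31.8% ± 1.37 to 17.7% ± 0.652, and for PSPC1 from 6.96% ± 0.403 to 5.34% ± 0.147. The aligner left introns unbridged, so each gene may have lost reads that cross an intron, and the shares within a group are uncertain to that extent. A ratio within a library does not depend on the size factor, and 7 ratios were compared. The log2 ratio of NONO to SFPQ signal was 0.38, 0.58 and 0.42 with DMSO and 1.69, 1.65 and 1.56 with erlotinib, a difference of 1.17. The ratio of NONO to PSPC1 differed by 0.71 and that of SFPQ to PSPC1 by -0.46, so SFPQ lost more than PSPC1. Between NEAT1 and its proteins the differences were larger, at 1.39 against NONO, 2.10 against PSPC1 and 2.56 against SFPQ. NEAT1 also gained on MALAT1, with log2 ratios of -0.10, 0.13 and 0.07 against 0.40, 0.32 and 0.27, a difference of 0.30. The groups did not overlap in any of the 7 ratios, and each had a 2-sided exact permutation p of 0.10 (0.10 after Benjamini-Hochberg adjustment), the smallest that 3 against 3 allows. The share of other gene pairs without overlap was not computed, and the groups were free of overlap in 73.6% of all single genes tested. The genes in these pairs were chosen with earlier results known, so the count of separate ratios carries no result of its own.

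**Figure D2:**
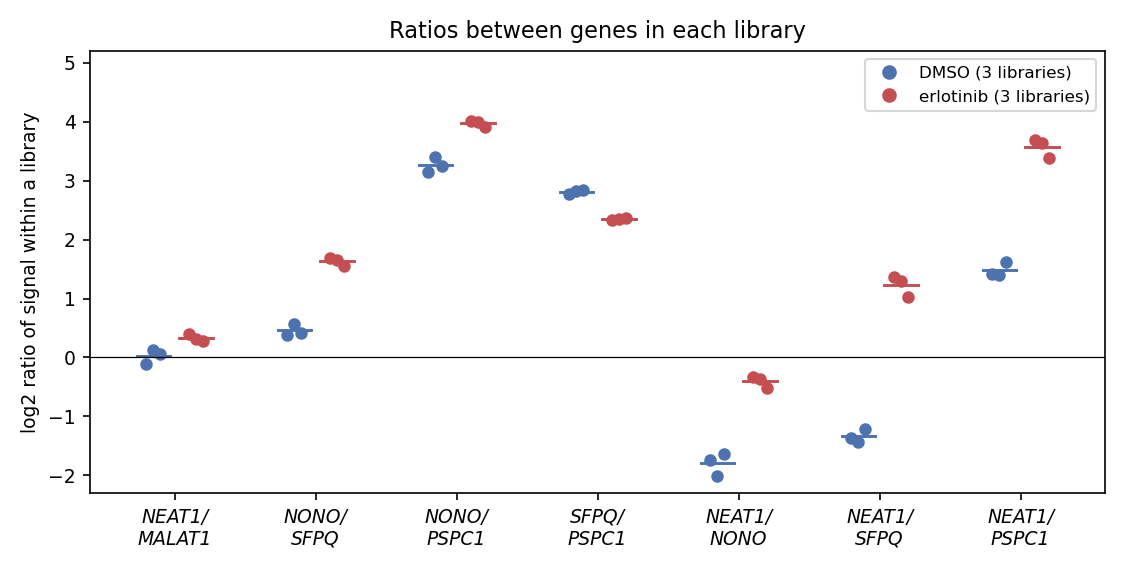
Log2 ratio of the signals of 2 genes within each library, with a point for each library and a line at the mean of each group of 3. The groups are separate in all 7 pairs, and the share of other gene pairs so separated was not computed. The NEAT1/SFPQ ratio crosses 0, from means of -1.33 with DMSO to 1.23 with erlotinib.

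RBM14 (Entrez 10432, chr11:66616630-66629934) encodes a coactivator and RNA-binding protein without which paraspeckles do not form. Signal was 4225, 3731 and 4045 with DMSO and 1073, 1151 and 1085 with erlotinib. The groups lay far apart, and the erlotinib libraries were close to each other. The log2 fold change was -1.86 (SE 0.07, 95% interval -2.01 to -1.70, limma adjusted p 7.4e-15), the 446th largest fall of all genes tested. A read-through gene of the annotation, RBM14-RBM4, covers the whole of RBM14 and was listed at 0 in all libraries.

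TARDBP (Entrez 23435, chr1:11012654-11030528) had a signal of 8032, 8692 and 7746 with DMSO and 4126, 4305 and 4224 with erlotinib. The groups did not overlap. The log2 fold change was -0.95 (SE 0.06, 95% interval -1.08 to -0.81, limma adjusted p 4.2e-11). RefSeq lists pseudogenes of TARDBP, and also of NONO, SFPQ and PSPC1, that can share their reads, so the levels of these genes and their shares per kb are uncertain to that extent. The pseudogene TARDBPP3, listed in the files as LOC643387, had a signal of 560, 546 and 663 with DMSO and 385, 319 and 338 with erlotinib (log2 fold change -0.76, limma adjusted p 6.52e-06). MASP2, which overlaps TARDBP, had a mean signal of 29.3.

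By level per kb, the order of the protein genes with DMSO was NONO, SFPQ, TARDBP at 1949 ± 116, RBM14 at 745 ± 46.5 and PSPC1 at 697 ± 29.3 (SD, n = 3 each), of which the last pair lay within their spread. With erlotinib TARDBP was at 1008 ± 21.5, PSPC1 at 459 ± 3.55 and RBM14 at 206 ± 7.85, which lay apart by more than their spread. MALAT1 had 445 ± 60.1 per kb with DMSO and 1017 ± 69.0 with erlotinib over its canonical GENCODE transcript of 10434 bases, which is longer than the RefSeq gene of 8779 bases given above, so that its level per kb would be higher over the latter. The place of NEAT1 in the order turned on which transcript was counted. It was 208 ± 18.96 and 588 ± 59.8 per kb over the long form, and 1285 ± 117 and 3631 ± 369 over the short form. The aligner left introns unbridged, so genes with several exons may have lost reads that cross an intron. The canonical transcripts have 12 exons for NONO, 10 for SFPQ, 9 for PSPC1, 6 for TARDBP, 3 for RBM14 and 1 each for NEAT1 and MALAT1. The loss was not measured, and the order between genes is uncertain to that extent.

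Other proteins found in paraspeckles mostly fell as well. Of 30 such genes listed, 28 were tested, and 21 were lower, 2 were higher and 5 passed in neither direction, against 35.4% lower and 35.3% higher of all genes. Their median log2 fold change was -0.51. Scaled to the total count, 19 of the 28 were lower and 5 were higher. Large falls were those of HNRNPM, a splicing regulator (-1.18, from 13945 ± 1719 to 6130 ± 422), and FAM98A (-1.15, from 3858 ± 250 to 1735 ± 12.2; SD, n = 3 each, limma adjusted p at most 3.3e-11). CIRBP, the cold-inducible RNA-binding protein, rose by 0.69, and AKAP8L rose by 0.43. Among the factors that set the length of NEAT1, the cleavage factor subunits CPSF6 and NUDT21 promote the short form and HNRNPK opposes them. Signal of NUDT21 fell by 0.92 on the log2 scale, that of HNRNPK by 0.60 and that of CPSF6 by 0.38 (limma adjusted p at most 8.2e-05 for each). TAF15 and SMARCB1 were listed at 0 in all libraries and were not tested.

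Among proteins of nuclear speckles, where MALAT1 gathers, more genes fell than rose. Of 22 genes 21 were tested, 13 were lower, 2 were higher and 6 passed in neither direction. Of all genes tested 35.4% were lower and 35.3% higher. The median log2 fold change of the 21 genes was -0.50. Without Erlo4, 13 were lower and 1 was higher, and scaled to the total count 12 were lower and 3 were higher. The falls were led by the SR splicing factors SRSF2 (-1.45, from 10025 ± 360 to 3656 ± 17.0), SRSF3 (-1.42, from 6183 ± 275 to 2311 ± 128) and SRSF1 (-1.42, from 24547 ± 1731 to 9166 ± 437; SD, n = 3 each, limma adjusted p at most 1.5e-13). CLK1, a kinase that phosphorylates SR proteins, rose by 0.90, from 724 ± 98.7 to 1349 ± 158, and LUC7L3 rose by 0.24. U2AF1 was listed at 0 in all libraries.

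Genes that make or guard the 3′ ends of NEAT1 and MALAT1 included no rise. Of 18 tested among 19 listed, 15 were lower and 3 passed in neither direction, against 35.4% lower of all genes tested, with a median log2 fold change of -0.69. Scaled to the total count, 12 of the 18 were lower and 0 were higher, and without Erlo6 13 were lower. RPP21 was listed at 0 in all libraries and was not tested. The largest falls were of subunits of RNase P, namely POP7 (-1.66, from 3675 ± 335 to 1162 ± 61.5), POP1 (-1.61, from 970 ± 41.6 to 318 ± 36.2) and RPP25 (-1.56, from 2191 ± 297 to 737 ± 11.6; SD, n = 3 each, limma adjusted p at most 2.5e-11). METTL16, a methyltransferase that binds the MALAT1 triple helix, had a log2 fold change of -0.10 (limma adjusted p 0.21). CPSF6, NUDT21 and HNRNPK belong to this list as well as to that of paraspeckle proteins. The non-coding RNA gene RPPH1 belongs to this list and to that of other long non-coding RNAs.

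**Figure D3:**
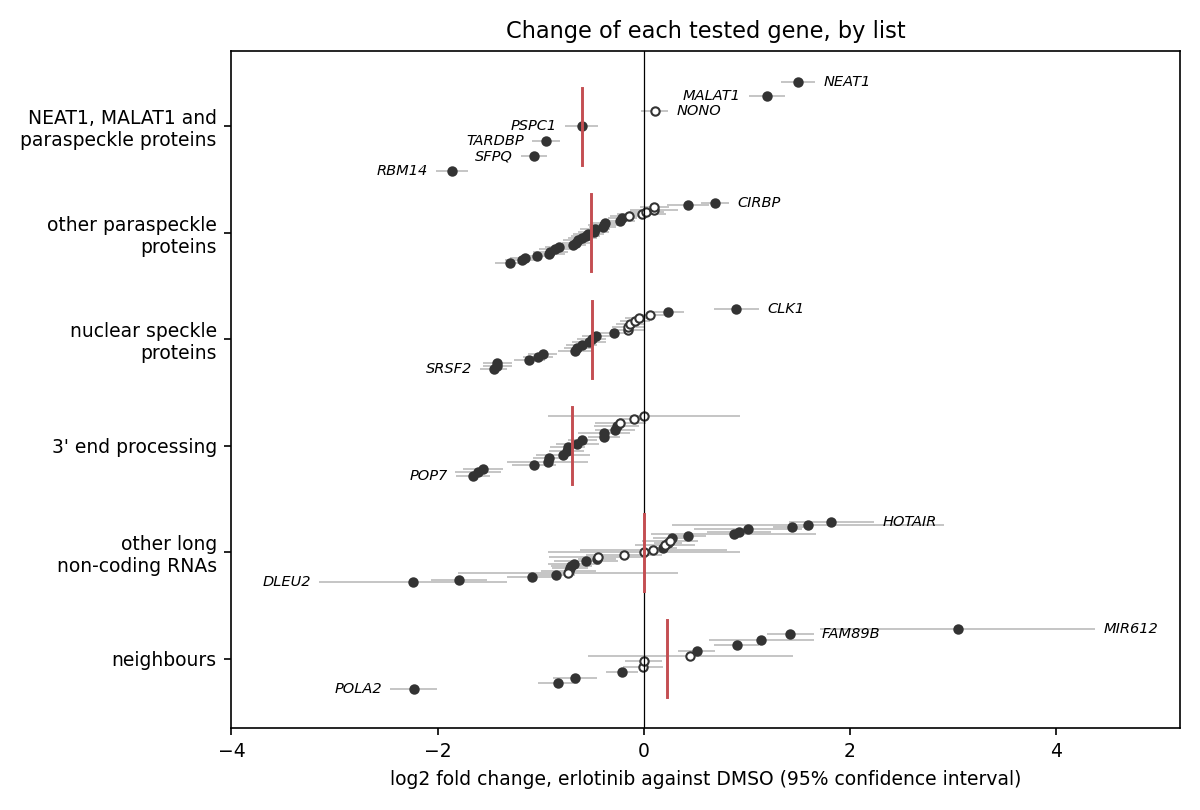
Log2 fold change of every tested gene in 6 lists, erlotinib against DMSO, with 95% confidence intervals. Filled points passed an adjusted p of 0.05, open points did not, and red lines are list medians. These lie at -0.60 for the 7 genes, -0.51 for other paraspeckle proteins, -0.50 for nuclear speckle proteins and -0.69 for 3′ end processing. They lie at 0.00 for other long non-coding RNAs and 0.23 for the neighbours.

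Of 33 other long non-coding RNAs listed, 27 were tested, and 10 were lower, 10 were higher and 7 passed in neither direction. These are 37.0% each way, near the 35.4% lower and 35.3% higher of all genes tested, with a median log2 fold change of 0.00. HOTAIR rose by 1.82 (from 70.1 ± 13.1 to 251 ± 50.3), and EPB41L4A-AS1 by 1.44 (from 408 ± 12.4 to 1112 ± 9.79). MIAT, counted among the higher, had a signal of 5.39 ± 3.07 with DMSO and 16.5 ± 2.85 with erlotinib (SD, n = 3 each), and it passed the filter of a mean signal of 10 only through its erlotinib libraries. CYTOR fell by 1.79 and GAS5, a host of small nucleolar RNAs, by 1.08 on the log2 scale. DLEU2, counted among the lower, had a signal of 48.4 ± 17.2 with DMSO and 9.55 ± 3.66 with erlotinib (SD, n = 3 each), and it passed the filter only through its DMSO libraries.

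Of 13 listed neighbours of NEAT1 and MALAT1 on chromosome 11, 12 were tested. Of these 5 were higher, MIR612 within NEAT1 among them, and 4 were lower, which is 41.7% and 33.3% against 35.3% and 35.4% of all genes tested. Nearest before NEAT1, FRMD8 had a log2 fold change of -0.01 (limma adjusted p 0.93). LTBP3, which binds latent TGF-beta, rose by 0.90, FAM89B by 1.42, MAP3K11 by 0.51 and, at a low signal, SLC25A45 by 1.14. POLA2, a subunit of DNA polymerase alpha, fell by 2.23, SSSCA1 (now ZNRD2) by 0.83, CDC42EP2 by 0.67 and EHBP1L1 by 0.21 on the log2 scale. TIGD3 had a log2 fold change of 0.45 (limma adjusted p 0.40), and KCNK7 had too few reads to be tested.

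**Figure D4:**
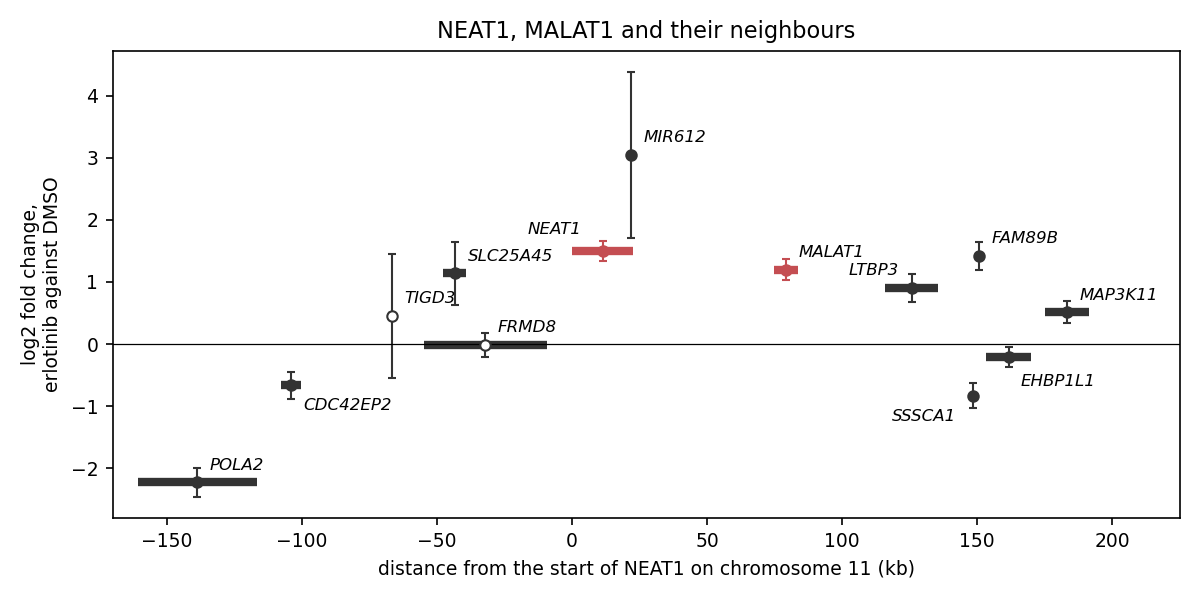
Log2 fold change (erlotinib against DMSO, with 95% confidence interval) of NEAT1, MALAT1 (red) and 11 of the 12 tested neighbours against distance from the NEAT1 start in kb. Thick bars span each gene, filled points passed an adjusted p of 0.05, and FRMD8, the nearest gene before NEAT1, lies at -0.01.

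To place the profiles of both RNAs, each gene was centred on its DMSO mean and compared by Euclidean distance over the 6 libraries among the 5013 genes whose mean signal reached 1000. Nearest to NEAT1 were PARP10 (distance 0.129), SCNN1A (0.215), NKX2-1 (0.223), SPATA20 (0.237) and ANO8 (0.241). MALAT1 was the 117th nearest, at 0.555. Nearest to MALAT1 were LDB1 (0.124), PIGQ (0.138), NUCB1 (0.140), TTYH3 (0.149) and CYTH2 (0.151). These distances describe 6 libraries of 2 groups and carry no test.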

How the data were processed

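Total RNA from HCC827 cells was enriched for mRNA on oligo(dT) beads and sequenced. Counts per gene are the authors' own, made with featureCounts 1.6.3 from unique alignments of read pairs. The aligner was Bowtie2 2.3.4 on GRCh38, which leaves introns unbridged. These versions are from the submitters' processing notes, which also name DESeq2 1.18.1. The deposited values are signal, meaning the reads of a library over its size factor (0.882 to 1.08), and 100% of them came out whole within 0.01 read when multiplied back. The recovered reads were used only in the count-based alternatives. All 6 columns were used. They were named as in the table (DMSO1 to DMSO3, Erlo4 to Erlo6).

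Differential expression was tested with limma 3.58.1 on log2(signal + 1), letting variance follow the mean, over 14215 genes whose mean signal reached 10, 2-sided, with Benjamini-Hochberg adjustment and a threshold of 0.05. Fold changes on this scale understate those of low genes. Ratios were tested by exact permutation. The 7 genes and all lists were chosen with earlier results of these data known. Genes named are the 7 themselves, up to 3 rises and 3 falls per list, factors nearest in function, all neighbours and the 5 most alike profiles. Some single genes are not reported here, though counts and medians of whole lists include them. The list of neighbours also held MIR548AR, which lies on chromosome 13 and was not tested. Alternatives were DESeq2 1.42.0, edgeR 4.0.16 (TMM and RLE factors), limma-voom, TMM factors in limma, total-count scaling, no filter, at least 10 reads in every library, pseudocounts of 0.1 and 10, a threshold of 0.01 and each library left out. The limma procedure was tested on simulated data, the outcome of which is not given here. Positions, promoters and transcripts came from RefSeq (GRCh38.p14) and GENCODE release 44. Other software was R 4.3.3, Python 3.11.15 and matplotlib 3.10.9.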

Additional observations from a re-analysis of the deposited data

How the results depend on the processing

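No paired analysis was possible because the columns of the erlotinib libraries carry none of the replicate numbers of the labels. NEAT1, MALAT1, SFPQ, PSPC1, TARDBP and RBM14 kept their direction and their call under all 17 alternatives, with log2 fold changes of 1.43 to 1.68, 1.08 to 1.38, -1.08 to -0.89, -0.63 to -0.42, -0.99 to -0.77 and -1.91 to -1.68 in that order. NONO passed the test with limma-voom (0.12, adjusted p 0.046), when scaled to the total count (0.29) and without DMSO2 (0.15), and ranged from 0.083 to 0.15 when a library was left out. Scaling to the total count moved the median log2 fold change of all genes to 0.19, and no filter moved it to 0.13. Under that scaling 6156 genes were higher and 3955 lower, against 5012 and 5031. It also gave 5 higher genes among other paraspeckle proteins, and 2 lower and 5 higher mitochondrial genes. When a library was left out, 1 to 2 speckle protein genes were higher (1 without Erlo4), and of the mitochondrial genes 2 to 8 were lower (2 without DMSO1, 8 without DMSO2) and 2 to 4 were higher (4 without DMSO1). The causes were not tested. MIR612 had too few reads to be tested where 10 reads were asked of every library. With 3 libraries a group, precision is limited by their number and, for MIR612, by depth.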

Other observations

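Of 8 listed factors known to act on NEAT1 transcription, 4 were higher with erlotinib, 3 were lower and ATF2 passed in neither direction (0.07), against 35.3% higher and 35.4% lower of all genes tested, with a median log2 fold change of 0.14. STAT3 rose by 0.68, from 3805 ± 189 to 6097 ± 183, and RUNX1 by 0.21. BRCA1, a repressor of NEAT1, fell by 3.03, from 3139 ± 287 to 384 ± 43.96, EPAS1, which encodes a hypoxia-inducible factor, by 1.12 and HSF1, the heat shock factor, by 0.43 on the log2 scale (SD, n = 3 each, limma adjusted p at most 0.007). These are values of mRNA, and their part in the change of NEAT1 was not tested.

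Mitochondrially encoded genes took 6.15% to 8.65% of the signal in the DMSO libraries and 8.23% to 9.31% in the erlotinib libraries, with DMSO2 the lowest. Of 15 tested, 4 were lower and 2 were higher, which is 26.7% and 13.3% against 35.4% and 35.3% of all genes tested. Without DMSO1 2 were lower and 4 higher, and without DMSO2 8 were lower. The rRNA genes RNR1 and RNR2 rose by 0.57 and 0.46, and the largest falls were of ND6 (-0.70), ND5 (-0.66) and COX2 (-0.31). Mitochondrial rRNA took 2.04% to 2.97% of the signal with DMSO and 3.44% to 4.04% with erlotinib. The libraries with erlotinib also had reads on more genes, 17367 to 17583 against 16446 to 16564.

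Of the 5 epithelial markers, 3 were lower and none was higher, against 35.4% lower and 35.3% higher of all genes tested. CDH1 had a signal of 27824 ± 967 and 30609 ± 633 (log2 fold change 0.14, limma adjusted p 0.053), and EPCAM had a log2 fold change of -0.05 (limma adjusted p 0.43). KRT18 went from 18755 ± 1731 to 7876 ± 337. Of the leukocyte markers, PTPRC and CD3E stayed at or below 5.62. The fibroblast markers DCN, LUM and COL1A2 stayed at or below 18.7, while COL1A1 rose by 1.47, from 77.7 ± 15.3 to 216 ± 27.9. Of the endothelial markers VWF had a signal of 3.94 ± 3.31 with DMSO and 27.4 ± 6.93 with erlotinib and passed the filter of a mean signal of 10 only through its erlotinib libraries, and PECAM1 and CDH5 stayed at or below 19.3.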
